A study of Saccharomyces cerevisiae with 43 samples.

Results

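The genes described here are 10 iron uptake and iron handling genes of budding yeast that belong to the regulon of the transcription factor Aft1: FIT1, FIT2, FIT3, ARN1, ARN2, SIT1, FET3, FTR1, TIS11 and HMX1. They were found by locus tag in both value tables, 10 of 10 among the 5604 features of a first array design and 10 of 10 among the 6868 features of a second. SIT1 is also called ARN3, and TIS11 is also called CTH2. On the first design 7 of the 10 had a value on all 32 arrays, and 4 of 320 values were missing. None was missing on the second design.

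Budding yeast turns these genes on when iron is short. Aft1, and in part its relative Aft2, enters the nucleus and binds their promoters, and iron-sulfur clusters passed on through the glutaredoxins Grx3 and Grx4 switch the factor off. The Fit proteins are cell wall mannoproteins that hold siderophores, the iron-binding molecules made by other microbes. Arn1, Arn2 and Sit1 carry siderophore-bound iron into the cell, while the ferroxidase Fet3 and the permease Ftr1 take up iron freed by surface reductases. Tis11 binds mRNAs of iron-using proteins and promotes their decay, and Hmx1 is a heme oxygenase that releases iron from heme.

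All cells were BY4741, a haploid laboratory strain with several auxotrophies, or its nup42Δ derivative, which lacks the nuclear pore protein Nup42. They grew exponentially before treatment, in YPD, a rich glucose medium, where the labels name it. On the first design each of 32 two-colour arrays set a sample against a reference. Naive BY4741 cells received 0.4 mM H2O2 for 10, 20, 30 or 40 min (3, 3, 2 and 2 arrays, against their own 0 min sample). Pretreated BY4741 cells had spent 60 min in 0.7 M NaCl and 240 min recovering without stress before the same H2O2 (3, 3, 2 and 2 arrays, against the recovered 0 min sample). Other arrays held 0.7 M NaCl alone for 15, 30, 45 and 60 min (1, 2, 2 and 1 arrays). The last 6 arrays compared untreated cells with cells that had recovered for 240 min, 3 after NaCl and 3 after a mock change of YPD. A further 11 arrays made up the second design, 1 for each condition: unstressed nup42Δ cells, and in each strain naive and pretreated cells after 10 and 20 min of H2O2 and cells after 30 min of NaCl.

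Values are log2 ratios of sample over reference, so they show a change between 2 samples and no absolute level, and levels of different genes cannot be compared. The base of the logarithm is inferred. Each array gave 4446 to 5575 values on the first design and 6500 to 6809 on the second. The array medians lay between −0.16 and 0.08 on the first design, and the SDs over genes between 0.226 and 1.46 there and between 0.409 and 1.42 on the second. No dye swap stands in the labels, so any constant dye bias of a gene remains in a ratio read against 0, and is removed where one array is subtracted from another. NUP42 read −5.36 and −4.75 on the arrays that set nup42Δ cells against BY4741, and between −0.29 and 1.23 on the other 9 arrays, where both channels hold the same strain. Whether replicates came from separate cultures is not in the labels, and p-values then measure only the spread between these samples. A lower ratio cannot tell less RNA per cell from fewer cells that express the gene. Tests on the first design used limma across all genes, and a gene was called at an adjusted p under 0.05.

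**Figure D1:**
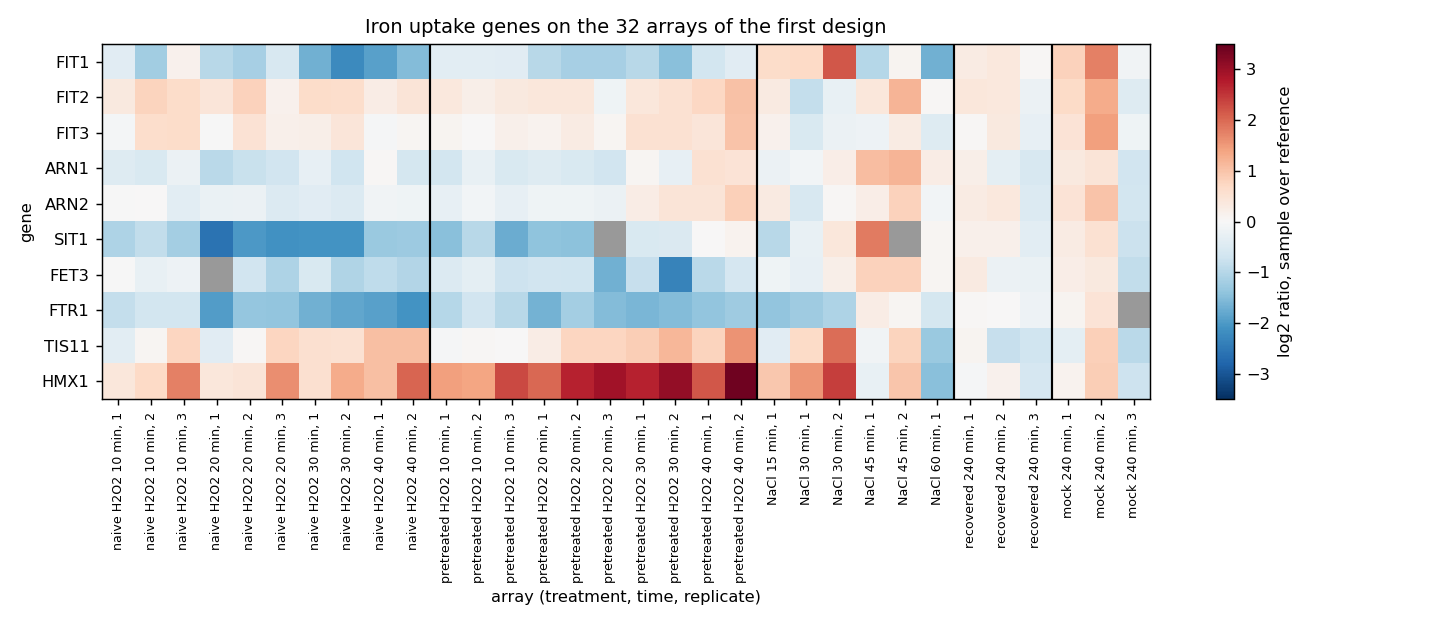
Log2 ratios (colour, sample over reference) of the 10 genes (rows) on the 32 arrays of the first design (columns, grouped by treatment and time, replicate number last, grey where there is no value). SIT1 and FTR1 were below 0 on every naive H2O2 array, HMX1 was above 0 on every H2O2 array, and mock replicate 2 was above 0 for all 10 genes.

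In naive cells H2O2 moved the genes of this regulon in different directions. The numbers called higher and lower at 10 and 40 min were close to the shares over all genes. The siderophore transporter gene SIT1, the permease gene FTR1 and, later, FIT1 and the ferroxidase gene FET3 fell, while HMX1 rose at 10, 20 and 40 min. At 10 min 2 of the 10 rose (FIT2 and HMX1), against 15.2% of 5419 genes tested, and 2 fell (SIT1 and FTR1), against 18.5%. At 20 min 1 rose (HMX1), against 25.4%, and 5 fell (FIT1, ARN1, SIT1, FET3 and FTR1), against 29.2%. The 30 min arrays gave no higher call, against 25.7%, and 4 lower ones (FIT1, SIT1, FET3 and FTR1), against 29.3%. After 40 min 2 were higher (TIS11 and HMX1), against 27.9%, and 4 lower (FIT1, SIT1, FET3 and FTR1), against 33.4%. The median of the 10 was −0.14, −0.55, −0.47 and −0.21 at the 4 times, beside −0.04, −0.07, −0.06 and −0.08 over all genes tested. With replicate 2 left out, 2 of the 10 genes were called at 10 min and 3 at each of 20 and 40 min; without replicate 3, 2 were called at 10 min.

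The cell wall genes did not move as 1 group. FIT1 read −0.39, −1.23 and 0.16 at 10 min, −0.97, −1.16 and −0.57 at 20 min, −1.67 and −2.24 at 30 min, and −1.89 and −1.52 at 40 min. Its arrays spread over both sides of 0 at 10 min and were all below 0 from 20 min on. The mean fell from −0.90 ± 0.29 (SE, n = 3, adjusted p = 0.012) at 20 min to −1.96 ± 0.35 (n = 2, adjusted p = 8.2e-05) at 30 min, a 3.88-fold lower ratio. The 20 min value did not pass without replicate 1 (adjusted p = 0.054) or replicate 2 (adjusted p = 0.083). FIT2, in contrast, read 0.34, 0.78 and 0.65 at 10 min, all above 0 (mean 0.59 ± 0.22, adjusted p = 0.045, which rose to between 0.061 and 0.21 without any 1 array), and stayed between 0.15 and 0.81 on every later naive array. None of those later means passed the test; the nearest was 30 min (0.63 ± 0.27, adjusted p = 0.054). FIT3 lay between −0.07 and 0.63 on the 10 naive arrays and was called at no time.

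Among the siderophore transporters, SIT1 changed far more than ARN1 and ARN2. SIT1 read −1.07, −0.87 and −1.18 at 10 min, −2.58, −2.0 and −2.13 at 20 min, −2.10 on both arrays at 30 min, and −1.31 and −1.27 at 40 min. Every naive array was below 0, the 20 and 30 min arrays lowest. The mean was −2.24 ± 0.19 (adjusted p = 8.8e-09) at 20 min, a 4.71-fold fall, and −1.29 ± 0.24 (adjusted p = 9.1e-05) at 40 min. ARN1 read −0.94, −0.77 and −0.66 at 20 min (mean −0.79 ± 0.17, adjusted p = 0.00063) and did not pass at the other 3 times. ARN2 lay between −0.49 and 0.02 on the naive arrays and was not called.

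Both genes of the reductive uptake complex fell, FTR1 earlier and further. FTR1 read −0.84, −0.64 and −0.63 at 10 min, −1.96, −1.34 and −1.37 at 20 min, −1.68 and −1.83 at 30 min, and −1.89 and −2.10 at 40 min. Its 10 naive arrays were all below −0.6, and the mean went from −0.70 ± 0.12 (adjusted p = 0.00021) to −1.995 ± 0.15 (adjusted p = 7.5e-10), a 3.99-fold fall. FET3 read −0.01, −0.25 and −0.18 at 10 min, then −0.67 and −1.09 at 20 min, −0.53 and −1.04 at 30 min, and −0.88 and −1.03 at 40 min, with 1 array of 20 min not valued. The later means were −0.88 ± 0.30, −0.79 ± 0.30 and −0.96 ± 0.30 (n = 2 each, adjusted p = 0.017, 0.032 and 0.0091). Without either array FET3 did not pass at 30 min (adjusted p = 0.061 and 0.36) or 40 min (0.057 and 0.11).

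Of the 2 genes that act inside the cell, HMX1 went the other way, and TIS11 was called higher only at 40 min. HMX1 read 0.40, 0.69 and 1.76 at 10 min, 0.41, 0.44 and 1.63 at 20 min, 0.55 and 1.30 at 30 min, and 1.04 and 2.05 at 40 min. All were above 0, with replicate 3 well above the others at 10 and 20 min. The mean was 0.95 ± 0.34 (adjusted p = 0.036) at 10 min and 1.54 ± 0.42 (adjusted p = 0.0029) at 40 min. Without replicate 2 neither early time passed (adjusted p = 0.073 and 0.052), nor did 40 min (0.16). Without replicate 3 it was 0.55 ± 0.40 at 10 min (adjusted p = 0.34) and 0.43 ± 0.40 at 20 min (adjusted p = 0.40). Replicate 3 at 10 and 20 min also carries another array identifier prefix than the rest. TIS11 read −0.37, 0.06 and 0.75 at 10 min, −0.40, 0.05 and 0.76 at 20 min, and 0.57 and 0.53 at 30 min. At 40 min it read 1.06 and 1.04 and passed (mean 1.05 ± 0.35, adjusted p = 0.014). That call did not hold without either array.

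In pretreated cells SIT1, FTR1 and ARN1 also fell early, HMX1 rose at every time, and by 40 min more of the 10 genes were called higher than lower. The lower calls at 10 min were 3 of 10 (ARN1, SIT1 and FTR1), against 23.7% of 5345 genes, with 1 higher (HMX1), against 16.6%. At 20 min 5 were lower, the same 5 genes as in naive cells, against 33.9%, and 1 higher (HMX1), against 26.7%. The 30 min arrays gave 3 lower calls (FIT1, FET3 and FTR1), against 32.6%, and 2 higher (TIS11 and HMX1), against 29.7%. By 40 min 6 of 10 were higher (FIT2, FIT3, ARN1, ARN2, TIS11 and HMX1), against 29.7% of 5013 genes, and 2 lower (FET3 and FTR1), against 33.4%. The median of the 10 went from −0.30 and −0.36 at 10 and 20 min to 0.12 and 0.58 at 30 and 40 min, beside −0.10, −0.10, −0.04 and −0.04 over all genes. The 6 rises at 40 min rested on 2 arrays: with replicate 2 left out, 2 of the 10 genes were called in all, with replicate 1 left out 5, and with the spread of the arrays equalised 2. At 30 min 2 were called without replicate 2.

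**Figure D2:**
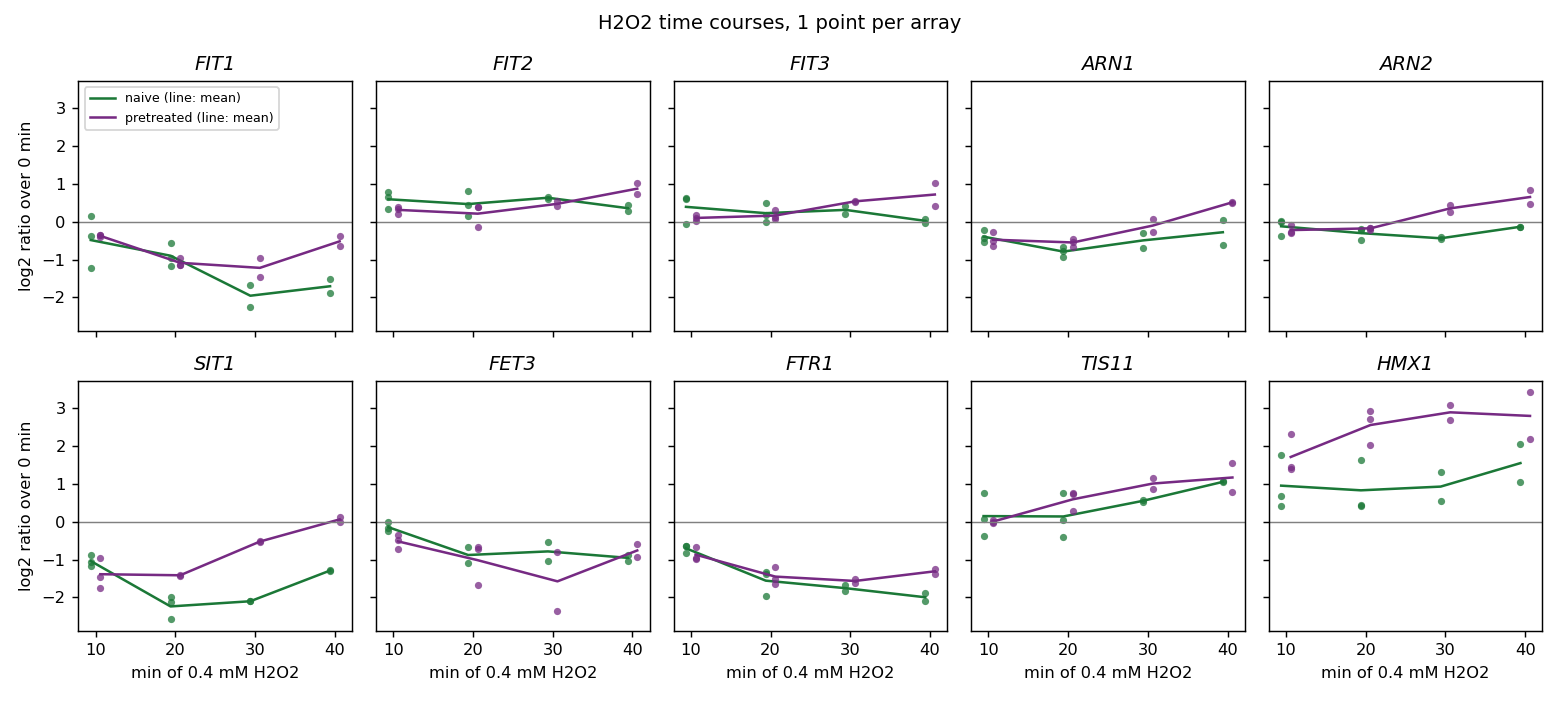
Log2 ratio over the 0 min sample (y axis) against minutes of 0.4 mM H2O2 (x axis) for each gene, with 1 point per array and a line through the means, naive in green and pretreated in purple. SIT1 ended at −1.29 in naive and 0.06 in pretreated cells at 40 min, HMX1 ran higher in pretreated cells, and FTR1 stayed below 0 in both.

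HMX1 gave the highest values of the 10 genes in pretreated cells. It read 1.43, 1.39 and 2.30 at 10 min, 2.02, 2.70 and 2.93 at 20 min, 2.69 and 3.08 at 30 min, and 2.17 and 3.41 at 40 min. The lowest pretreated array, 1.39, stood above 7 of the 10 naive arrays. The means were 1.71 ± 0.34, 2.55 ± 0.34, 2.89 ± 0.42 and 2.79 ± 0.42 (adjusted p = 0.00044, 1.7e-06, 3.8e-06 and 4.6e-06), a 7.39-fold rise at 30 min. TIS11, which encodes the mRNA-binding protein, read −0.03, 0.04 and 0.00 at 10 min and 0.77 and 1.56 at 40 min (mean 1.17 ± 0.35, adjusted p = 0.0068).

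SIT1 fell and then returned to the reference value in pretreated cells. It read −1.45, −0.97 and −1.74 at 10 min, −1.40 and −1.43 at 20 min with 1 array not valued, −0.54 and −0.51 at 30 min, and 0.00 and 0.12 at 40 min. The first 5 values all lay below −0.9, and the last pair lay within 0.12 of 0. The means were −1.39 ± 0.19 (adjusted p = 1.4e-05) at 10 min and 0.06 ± 0.24 (adjusted p = 0.84) at 40 min. The other siderophore transporters ended above the reference: ARN1 read 0.53 and 0.49 at 40 min (mean 0.51 ± 0.21, adjusted p = 0.042) after −0.46, −0.53 and −0.66 at 20 min (mean −0.55 ± 0.17, adjusted p = 0.0095). ARN2 read 0.46 and 0.84 at 40 min (mean 0.65 ± 0.25, adjusted p = 0.030). Neither passed at 40 min without either array, with adjusted p = 0.17 and 0.19 for ARN1 and 0.057 and 0.32 for ARN2.

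In pretreated cells FTR1 was lower at all 4 times and FET3 from 20 min on, after −0.52 ± 0.25 (adjusted p = 0.096) at 10 min. FTR1 read between −0.99 and −0.66 at 10 min, between −1.65 and −1.19 at 20 min, −1.61 and −1.52 at 30 min, and −1.38 and −1.24 at 40 min, all below 0 (mean −1.31 ± 0.15 at 40 min, adjusted p = 1.8e-07). FET3 read −0.80 and −2.35 at 30 min, 2 arrays that differ by more than any other pair of replicates of this gene, and −0.93 and −0.59 at 40 min (mean −0.76 ± 0.30, adjusted p = 0.033). Of the cell wall genes, FIT1 read −0.96, −1.15 and −1.15 at 20 min and −0.65 and −0.39 at 40 min, when it no longer passed (mean −0.52 ± 0.35, adjusted p = 0.21). FIT2 read 0.72 and 1.02 (mean 0.87 ± 0.27, adjusted p = 0.0081) and FIT3 0.42 and 1.01 (mean 0.72 ± 0.25, adjusted p = 0.015) at 40 min, all above 0.

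The difference between pretreated and naive cells sets the H2O2 response after NaCl and recovery against that of cells with neither in their labels. No array held mock-treated cells given H2O2, so NaCl was not tested apart from the medium change and recovery time. Few of the 10 genes passed the test of the pretreated minus naive difference, and all calls were higher in pretreated cells. At 10 min 0 of 10 were called by limma, also 0 at an unadjusted p under 0.05, against 0.229% of 5241 genes. At 20 min 1 was higher (HMX1), against 3.06% of 5298 genes, and none lower, against 0.698%. At 30 min 2 were higher (SIT1 and HMX1), against 2.77%, and none lower, against 6.16%. At 40 min 2 were higher (SIT1 and FTR1), against 2.54%, and none lower, against 9.39%. The median difference over the 10 was −0.16, 0.12, 0.42 and 0.74 at the 4 times, beside −0.07, −0.04, −0.02 and −0.05 over all genes.

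HMX1 differed by 1.72 ± 0.48 at 20 min (2.55 ± 0.47, SD, n = 3, against 0.83 ± 0.70, SD, n = 3, adjusted p = 0.049). Within the arrays of prefix YG9 the difference was 1.94 (2 against 2 arrays), and within prefix YG8 it was 1.30 (1 against 1). At 30 min it was 1.96 ± 0.59 (adjusted p = 0.040), and at 40 min 1.25 ± 0.59 (adjusted p = 0.18). SIT1 differed by 1.57 ± 0.33 at 30 min (−0.53 ± 0.02 against −2.10, adjusted p = 0.0096) and by 1.35 ± 0.33 at 40 min (0.06 ± 0.08 against −1.29 ± 0.03, adjusted p = 0.011). FTR1 differed by 0.69 ± 0.22 at 40 min (−1.31 ± 0.10 against −1.995 ± 0.15, adjusted p = 0.041). All 5 calls were lost when the arrays compared were fitted alone (adjusted p from 0.0997 to 0.459) and when the spread of the time course arrays was equalised (0.069 to 0.29). HMX1 at 20 min was also lost without naive replicate 1 or 2 or pretreated replicate 3 (adjusted p = 0.17, 0.16 and 0.22), SIT1 at 30 min without naive replicate 1 (0.12), and HMX1 at 30 min and both 40 min calls without any 1 array. The pretreated and naive arrays have separate references.

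With the change after recovery added to the pretreated response, which sets both against unstressed cells but does not remove a constant dye bias, no member was called. At 10 min 0 of 10 passed (0 at an unadjusted p under 0.05), against 0% of 5237 genes (382 unadjusted). At 20 min 0 of 10 passed (2 unadjusted, SIT1 and HMX1), against 0.227% of 5280 genes. HMX1 gave 0.59 ± 0.59 at 10 min and 1.56 ± 0.59 at 20 min (adjusted p = 0.85 and 0.23), and SIT1 −0.35 ± 0.33 and 0.82 ± 0.36 (adjusted p = 0.84 and 0.28).

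After NaCl, the first stress, HMX1, TIS11 and FIT1 were called higher and FTR1 lower at 30 min. ARN1, FET3 and FIT2 were called higher at 45 min. The calls of TIS11, FIT1, FET3 and FIT2 did not hold in every setting. The higher count at 30 min was close to the share over all genes. At 30 min 3 of 10 were higher (FIT1, TIS11 and HMX1), against 24.6% of 4986 genes, and 1 lower (FTR1), against 27.6%. At 45 min 9 could be tested, of which 3 were higher (FIT2, ARN1 and FET3), against 18.6% of 4932 genes, and none lower, against 19.2%. The median over the members was 0.01 and 0.35 at these times, beside −0.01 and −0.02 over all genes.

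HMX1 read 0.94 at 15 min, 1.54 and 2.41 at 30 min, −0.27 and 0.97 at 45 min and −1.45 at 60 min. It was high on the early arrays and low on the last one (mean 1.98 ± 0.42 at 30 min, n = 2, adjusted p = 0.00039). TIS11 read −0.41 at 15 min, 0.68 and 1.96 at 30 min, −0.12 and 0.79 at 45 min and −1.29 at 60 min (mean 1.32 ± 0.35 at 30 min, adjusted p = 0.0034). FIT1 read 0.65, then 0.71 and 2.18, then −1.01 and 0.09, and −1.67 at 60 min (mean 1.45 ± 0.35 at 30 min, adjusted p = 0.0016). For these 3 genes replicate 2 was the higher array at 30 and at 45 min, and without it FIT1 (0.71, adjusted p = 0.25) and TIS11 (0.68, adjusted p = 0.29) did not pass at 30 min. The 15 and 60 min arrays have no replicate.

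FTR1 read −1.39 at 15 min, −1.25 and −1.08 at 30 min, 0.27 and 0.08 at 45 min and −0.61 at 60 min. It was low on the 3 early arrays (mean −1.17 ± 0.15 at 30 min, adjusted p = 1.6e-06). At 45 min ARN1 read 1.09 and 1.18 (mean 1.14 ± 0.21, adjusted p = 0.00024), FET3 0.80 on both arrays (adjusted p = 0.041) and FIT2 0.41 and 1.19 (mean 0.80 ± 0.27, adjusted p = 0.024). With the array prefix as a block FET3 and FIT2 did not pass (adjusted p = 0.14 and 0.06), nor did FET3 without either array or FIT2 without replicate 2 (0.48). SIT1 read 1.82 on the 1 array of 45 min that had a value, after −0.97 at 15 min and −0.27 and 0.41 at 30 min. ARN1 and SIT1 both had their highest value of the whole first design at 45 min of NaCl.

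The state of the cells before the second stress was measured 240 min after NaCl or mock treatment. Neither group held a called gene: 0 of 10 members passed after NaCl (0 unadjusted), against 0% of 5583 genes (473 unadjusted), and 0 of 10 after the mock treatment (3 unadjusted, FIT1, FIT2 and FIT3), against 0% of 5438 genes (205 unadjusted). Recovered minus mock likewise gave 0 of 10 (0 unadjusted), against 0% of 5425 genes (44 unadjusted).

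The mock arrays differed widely from each other in these genes. FIT1 read 0.81, 1.77 and −0.13 in the 3 mock replicates, FIT2 0.66, 1.30 and −0.46, FIT3 0.49, 1.43 and −0.14, and ARN2 0.48, 0.99 and −0.65. HMX1 read 0.12, 0.85 and −0.73. Replicate 2 was the highest mock array for 10 of 10 genes, and replicate 3 the lowest for 9 of the 9 with a value on it. The members' median was 0.31, 0.85 and −0.66 on mock replicates 1, 2 and 3, although mock cells had received no stress.

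For the 9 genes with a value on all 3 mock arrays, the range over the arrays went from 1.11 (ARN1) to 1.90 (FIT1) with a median of 1.58. Over the 4621 genes valued on all 3 mock arrays the median range was 0.34 and the 95th percentile 1.11. All 9 were at or above that percentile. On the recovered arrays the 10 genes ranged over 0.21 to 0.90, with none above the 95th percentile of 5271 genes (1.10). Their medians were 0.19, 0.16 and −0.33, and replicate 3 was again the lowest, for 9 of 10 genes.

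**Figure D3:**
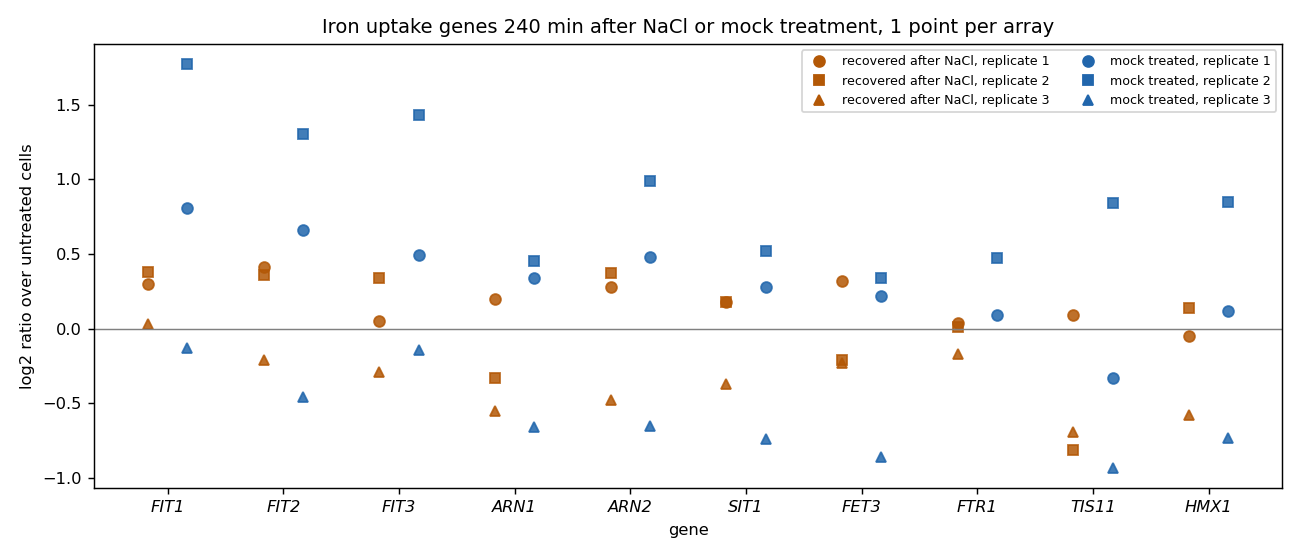
Log2 ratio over untreated cells (y axis) of each gene (x axis) 240 min after NaCl (orange) or mock treatment (blue), with 1 point per array and the symbol giving the replicate. Mock replicate 2 is the highest mock point for all 10 genes, and the recovered points lie closer together, between −0.81 and 0.41.

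In BY4741 on the second design, pretreated cells had higher ratios than naive cells in 8 of 10 genes at 10 min and 8 of 10 at 20 min. In nup42Δ cells all 10 values were lower in pretreated than in naive cells at both times, HMX1 at 20 min with a difference of only −0.02. The strain contrast, the nup42Δ difference minus the BY4741 difference, had a median of −2.33 over the 10 genes at 10 min and −1.77 at 20 min. Over 6534 genes the medians were −0.03 and 0.01, with 5th and 95th percentiles of −1.02 and 0.77 at 10 min and −0.999 and 1.15 at 20 min. There is 1 array for each condition, so none of these differences has a replicate check and no test was made. A contrast counted as called where its size was at least 1 on the log2 scale in the same direction at both times: 7 of 10 genes were lower by this rule, against 1.85% of all genes, and none was higher, against 0.566%. SIT1, FET3 and FTR1 did not meet it.

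The FIT genes gave the largest contrasts at 10 min beside HMX1. FIT1 read −0.06 in naive and 1.32 in pretreated BY4741 at 10 min, and 2.09 in naive and −0.41 in pretreated nup42Δ cells. It was high on the pretreated array of 1 strain and on the naive array of the other, and the contrast was −3.89 at 10 min and −2.81 at 20 min. FIT2 read 0.04 and 0.82 in BY4741 and 2.16 and −0.22 in nup42Δ cells at 10 min (contrast −3.16, and −2.87 at 20 min). FIT3 read −0.23 and 0.76, then 1.18 and −0.52 (contrasts −2.70 and −1.77). FIT2 and FIT3 are neighbouring genes on chromosome XV, and FIT1 lies on chromosome IV.

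The siderophore transporters split. ARN2 read 0.16 and 0.68 in naive and pretreated BY4741 at 10 min, and 1.85 and −0.20 in nup42Δ cells (contrast −2.57, and −2.60 at 20 min). ARN1 read −0.09 and 1.10, then 0.74 and −0.15 (contrasts −2.08 and −1.78). SIT1 read 0.15 and −0.25 in BY4741 and 0.82 and −0.41 in nup42Δ cells at 10 min, and its contrasts of −0.83 and −1.36 were not called. FET3 and FTR1 differed least: the contrasts were −0.73 and −0.51 for FET3 and −0.61 and 0.32 for FTR1.

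TIS11 read 0.66 and 0.84 in naive and pretreated BY4741 at 10 min, and 1.64 and 0.09 in nup42Δ cells (contrasts −1.73 and −1.51). HMX1, the heme oxygenase gene, read 1.05 and 2.76 in BY4741 at 10 min and 1.28 and 3.66 at 20 min. In nup42Δ cells it read 1.68 and 0.64 at 10 min and 1.92 and 1.91 at 20 min. The 20 min contrast of HMX1 (−2.40) thus came from the BY4741 arrays, where pretreated cells were higher by 2.39, while the nup42Δ difference was −0.02. For FIT1, FIT2 and ARN2 the 20 min nup42Δ differences (−2.49, −1.99 and −2.05) were larger in size than the BY4741 ones (0.32, 0.87 and 0.55).

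**Figure D4:**
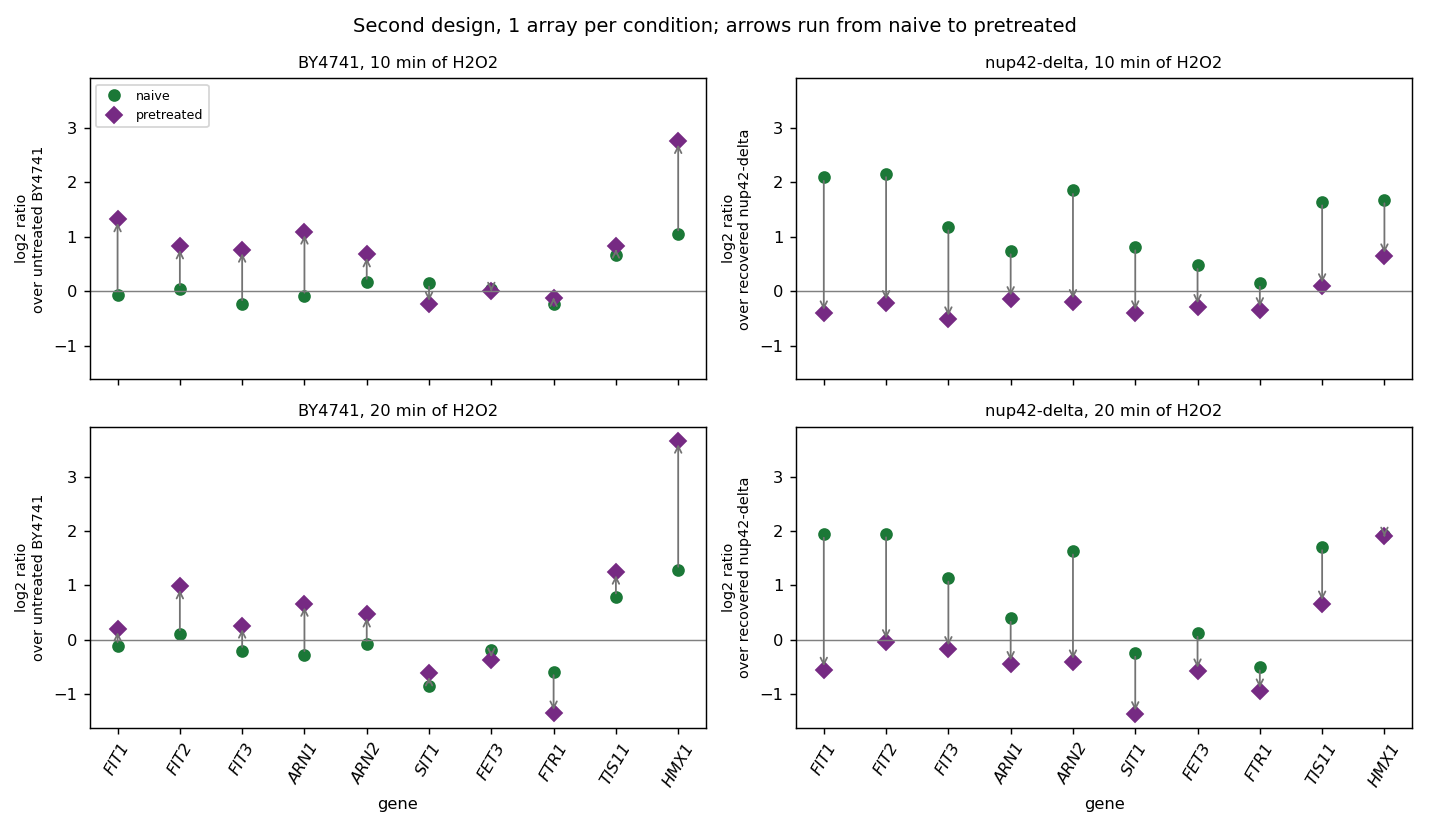
Log2 ratio of each gene (x axis) on the 8 H2O2 arrays of the second design, naive as circles and pretreated as diamonds, with arrows from naive to pretreated. The reference was untreated BY4741 in the left panels and, per the sample labels, recovered nup42Δ cells in the right panels, where all 10 arrows point down.

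The reference of the arrays bears on how these ratios are read. The BY4741 arrays had untreated BY4741 cells as reference. The sample names and channel labels of the 4 nup42Δ arrays give nup42Δ cells that had been pretreated and had recovered, while the free text of the same records speaks of the basal state. The within-strain difference holds if both arrays of a strain share 1 reference, as the channel labels have it. Under that reading, naive nup42Δ cells after 10 min of H2O2 stood above recovered nup42Δ cells for all 10 genes (median 1.41). Pretreated nup42Δ cells stood near them (median −0.26, from −0.52 to 0.64). No array sets recovered against untreated nup42Δ cells.

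The change from 10 to 20 min, in which a reference shared by both arrays cancels, differed between the genes. The state before H2O2 cancels only where it adds the same amount at both times, which was not tested. SIT1 changed by −1.01 in naive BY4741, −0.37 in pretreated BY4741, −1.06 in naive nup42Δ and −0.96 in pretreated nup42Δ cells. HMX1 changed by 0.90 in pretreated BY4741 and 1.27 in pretreated nup42Δ cells, and by 0.22 and 0.24 in the naive cells. In pretreated BY4741 FTR1 changed by −1.24 and FIT1 by −1.12, and in pretreated nup42Δ cells by −0.60 and −0.14. The median change over the 10 genes was −0.11 in naive and −0.38 in pretreated BY4741, and −0.22 in naive and −0.18 in pretreated nup42Δ cells. The strain contrast of that change had a size of at least 1 for 1 of the 10 genes, FIT1 (1.08). The share over all genes was not counted. The part of differences between cultures before H2O2 in the strain contrast was not tested. On the mock arrays of the first design FIT1 differed by 1.90 between samples that had received no stress.

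**Figure D5:**
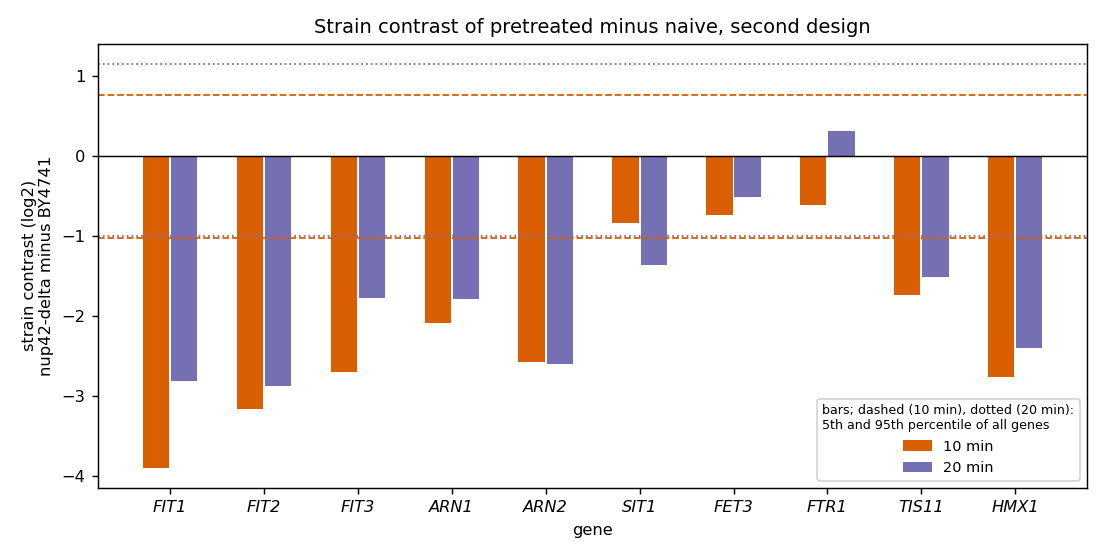
Strain contrast (y axis, log2, pretreated minus naive in nup42Δ cells minus the same in BY4741) of each gene (x axis) at 10 and 20 min of H2O2, as bars from 1 array per condition. The lines mark the 5th and 95th percentiles of all genes, and 7 genes lie below −1 at both times.

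The first and second designs gave different values for some of the genes in the BY4741 comparison. At 10 min the level difference on the first design was 0.35 ± 0.50 for FIT1, −0.09 ± 0.38 for FIT2 and −0.31 ± 0.30 for ARN1, where the second design gave 1.39, 0.78 and 1.19. For HMX1 at 20 min the values were 1.56 ± 0.59 and 2.39. SIT1 at 10 min gave close values, −0.35 ± 0.33 and −0.39. The second-design values have no replicate and so no SE. A constant dye bias stays in the level difference of the first design and is removed by the subtraction on the second. Cells had grown exponentially for 3 doublings on the first design and for at least 7 generations on the second. The tables were normalised separately and were not tested against each other.

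On the 1 array of unstressed nup42Δ cells against BY4741, the 10 genes had a median of −0.22 and ranged from −0.71 (ARN2) to 0.42 (ARN1). Of the 10, 7 were below 0, and the SD over all genes on that array was 0.409. Without a replicate the strain difference was not tested. After 30 min of NaCl, HMX1 read 2.52 in BY4741 and 1.60 in nup42Δ cells, TIS11 1.14 and 0.38, and FTR1 −1.54 and −2.02. All 10 genes read lower on the nup42Δ array, which the labels pair with recovered BY4741 cells as reference, so strain and reference cannot be told apart there. FIT1, 1.45 ± 0.35 on the first design, read 0.22 in BY4741 at that time.

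Over the 32 arrays of the first design the 10 genes did not form 1 pattern. These correlations are descriptions, since arrays of 1 time course share a treatment and do not count as independent samples. Each gene's Pearson correlation with the mean of the other 9 was highest for ARN2 (0.77) and ARN1 (0.71), followed by SIT1 (0.55), and lowest for HMX1 (−0.03), with a median of 0.43. The order changed on the 20 H2O2 arrays alone, where SIT1 was highest (0.82), HMX1 gave 0.44 and FET3 was lowest (−0.14). The closest pairs were ARN1 with SIT1 (0.85), FIT2 with FIT3 (0.81), TIS11 with HMX1 (0.80) and FET3 with FTR1 (0.76). FIT1 did not pair with FIT2 (−0.10) or FIT3 (0.10). FET3 and HMX1 ran against each other (−0.55). Probe sequences were not used here, so signal shared between the FIT genes was not tested.

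Of the 4876 genes valued on at least 28 arrays, those outside the 10 with the highest correlation to their mean were ENB1 (0.74), which encodes the enterobactin transporter, and FET5 (0.74), a vacuolar multicopper oxidase like Fet3. Next came MIX17 (0.71), which encodes a protein of the mitochondrial intermembrane space, FRE2 (0.71), which encodes a surface ferric reductase, and SIP3 (0.69). The median correlation of the other genes was −0.01. On the 20 H2O2 arrays alone FRE2 gave 0.79 and ENB1 0.67, and the 5 were no longer the nearest genes: their ranks were 183 for ENB1, 87 for FET5, 63 for MIX17, 35 for FRE2 and 24 for SIP3.

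The 2 activators moved apart after H2O2. AFT2 rose at every time in naive cells, from 1.33 ± 0.12 (n = 3, adjusted p = 1.6e-08) at 10 min to 3.17 ± 0.14 (n = 2, adjusted p = 1.5e-13) at 40 min. AFT1 fell by 0.96 ± 0.17 at 10 min (adjusted p = 0.00017) and 0.83 ± 0.17 at 20 min, and was at −0.11 ± 0.20 at 40 min (adjusted p = 0.67). In pretreated cells AFT2 reached 2.39 ± 0.14 at 30 min and 2.27 ± 0.14 at 40 min, where it was lower than in naive cells (difference −0.91 ± 0.20, adjusted p = 0.0054). AFT1 fell by 0.98 ± 0.17 at 10 min there. On the second design AFT2 read 1.02 in naive and 1.78 in pretreated BY4741 at 20 min, and 1.62 and 1.52 in nup42Δ cells.

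Of the other 6 regulators, CTH1, the relative of TIS11, rose in naive cells by 1.49 ± 0.16 at 10 min and 2.01 ± 0.16 at 20 min (adjusted p = 8.3e-07 and 2.8e-09). At 40 min it was 1.97 ± 0.28 lower in pretreated than in naive cells on the log2 scale (log2 difference −1.97, adjusted p = 0.0005). YAP5, a factor active at high iron, read 2.09, 1.64 and 5.99 at 20 min in naive cells, with replicate 3 far above the others. Its mean rose by 3.24 ± 0.56 (adjusted p = 8.8e-05), and was 1.865 without replicate 3. Of the 8 regulators 4 were higher and 2 lower at 20 min in naive cells, where 25.4% of all genes were higher and 29.2% lower.

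The other transport genes were led by MRS4, the mitochondrial iron importer, which rose from 1.77 ± 0.15 at 10 min (adjusted p = 1.2e-08) to 3.09 ± 0.19 at 40 min in naive cells. In pretreated cells it was at 2.23 ± 0.15 at 10 min and 2.56 ± 0.19 at 40 min, where no difference from naive cells passed. Of the 12 in this list, 3 were higher and 4 lower at 20 min in naive cells, where the shares over all genes were 25.4% and 29.2%. In pretreated cells 4 were higher and 6 lower at that time, against 26.7% and 33.9%. The naive counts are close to the shares of all genes. CCC1, the vacuolar iron importer, rose by 1.04 ± 0.15 at 10 min in pretreated cells (adjusted p = 1.7e-05). At 20 min 3 of the 12 transport genes were higher in pretreated than in naive cells, against 3.06% of all genes tested. They were SMF3, a vacuolar exporter (0.86 ± 0.19, adjusted p = 0.017), COT1, a vacuolar zinc and cobalt transporter (0.81 ± 0.19, adjusted p = 0.027) and FET5 (0.77 ± 0.21, adjusted p = 0.046). SMF3 passed again at 30 min (0.90 ± 0.23, adjusted p = 0.019) and COT1 at 40 min (0.94 ± 0.24, adjusted p = 0.012). All member calls of the pretreated minus naive difference were lost in some other settings. Those settings were not run for the regulators, transport genes, reductases or iron-sulfur enzymes. NaCl lowered FET4, the low-affinity iron transporter, to −2.38 ± 0.26, and CTR1, the copper transporter, to −2.19 ± 0.30, at 45 min (adjusted p = 2.9e-07 and 1.1e-05). The CTR1 arrays read −1.15 and −3.22, and the value is one or the other when 1 array is left out. MRS4 rose by 1.46 ± 0.19 at 30 min of NaCl.

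Of the 6 reductase genes, none was higher and 2 were lower at 20 min of H2O2 in naive cells, and likewise in pretreated cells. The lower shares over all genes, 29.2% and 33.9%, are close to 2 of 6. FRE4 reached −2.30 ± 0.39 at 20 min and −2.65 ± 0.48 at 40 min in pretreated cells (adjusted p = 7.9e-05 and 0.00011). On NaCl FRE1, the main surface reductase, fell by 3.11 ± 0.33 at 30 min and fell by 2.19 ± 0.33 at 45 min (adjusted p = 9.2e-08 and 2.4e-05). The 45 min arrays read −1.21 and −3.16, and the value is −1.21 without replicate 2. On the second design 3 reductases (FRE1, FRE3 and FRE6) met the rule for a lower strain contrast, against 1.85% of all genes. The rule was also met by 2 of the 12 transport genes (FTH1 and CCC2) and by none of the 8 regulators. FRE6 (−1.02 and −1.08), FTH1 (−1.08 and −1.03) and CCC2 at 10 min (−1.07) lay close to the limit, with 1 array per condition. FRE3, which lies near FIT2 with 1 annotated gene between them, gave −1.68 at 10 min and −2.22 at 20 min. These 5, and GLT1 in this contrast, were named after their values were seen.

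Of the 8 iron-sulfur enzyme genes, whose products use the iron, 1 was higher and 5 lower at 20 min in naive cells, against 25.4% and 29.2% of all genes. The counts were 1 and 3 at 10 min, against 15.2% and 18.5%. They were 2 and 4 at 30 min, against 25.7% and 29.3%, and 2 and 4 at 40 min, against 27.9% and 33.4%. In pretreated cells they were 1 and 2 at 10 min, against 16.6% and 23.7%, and 2 and 4 at 20 min, against 26.7% and 33.9%. At 30 min they were 1 and 5, against 29.7% and 32.6%. At 40 min they were 1 and 4 of 6 tested, against 29.7% and 33.4%. GLT1, glutamate synthase, reached −2.63 ± 0.32 in naive and −3.65 ± 0.32 in pretreated cells at 40 min (adjusted p = 4.2e-07 and 2.0e-09). LYS4, homoaconitase, reached −2.43 ± 0.27 at 40 min in naive and −2.58 ± 0.27 at 30 min in pretreated cells. ILV3, a dehydratase of branched-chain amino acid synthesis, reached −3.21 ± 0.20 in pretreated cells at 40 min, 1.34 ± 0.28 below naive cells (log2 difference −1.34, adjusted p = 0.0037), and LEU1, isopropylmalate isomerase, was also lower there (difference −1.73 ± 0.33, adjusted p = 0.0019), as it had been at 30 min (−1.09 ± 0.33, adjusted p = 0.043). SDH2, a succinate dehydrogenase subunit, fell by 1.51 ± 0.29 at 10 min in naive cells (arrays −1.17 and −1.85, adjusted p = 0.00045). Later SDH2 stood above 0, at 0.76 and 1.23 at 30 min and 0.46 and 1.24 at 40 min. ACO1, aconitase, was 0.78 ± 0.22 higher in pretreated than in naive cells at 20 min (adjusted p = 0.048). On NaCl RIP1, the Rieske protein gene, rose by 1.54 ± 0.19 at 45 min, while LYS4 and GLT1 fell by 2.29 ± 0.27 and 1.41 ± 0.32 at 30 min. GLT1 alone of the 8 met the rule for a higher strain contrast (1.38 and 2.43), against 0.566% of all genes. None met that for a lower one, against 1.85%.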

How the data were processed

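The deposited values, 1 log2 ratio per gene and array (channel 2 over channel 1, per the labels' dyes), are the authors' own. Base 2 and direction were inferred. Scanner, background correction and normalization: not given in the sources used here. Ratios carry no intensity, so dim spots could not be filtered, and the number of arrays limits precision. Locus tags were named from RefSeq's gene table (assembly R64). Group means over all 32 arrays of the first design were fitted with limma 3.58.1 in R 4.3.3, 2-sided, with Benjamini-Hochberg adjustment over genes valued on at least 2 arrays per group. The spread is pooled over all groups, so an SE can be smaller than the compared arrays imply. The second design was described without a test. Alternatives changed the arrays fitted, scaling, centring, missing values, blocks and replicates. On the first design they were read gene by gene for the 10 members only. For the other iron genes only means of YAP5, FRE1 and CTR1 without single arrays were taken. Members, the 34 other iron genes, tests and alternatives were chosen with earlier results of these data known. Beside the members, the rule named up to 4 listed genes with the largest called change per comparison, AFT1, AFT2 and the 5 most correlated genes; those described are a part of these. Sequences were not used here.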

Additional observations from a re-analysis of the deposited data

Results flagged for a closer look

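For 7 genes on the second design the pretreated minus naive value was above 0 in BY4741 and below 0 in nup42Δ cells at both times, although for HMX1 the nup42Δ value at 20 min was only −0.02 and its contrast there came from BY4741. With 1 array per condition this difference was not tested. The strain contrast was −3.89 at 10 min and −2.81 at 20 min for FIT1, −3.16 and −2.87 for FIT2, and −2.70 and −1.77 for FIT3. It was −2.08 and −1.78 for ARN1 and −2.57 and −2.60 for ARN2. TIS11 gave −1.73 and −1.51, and HMX1 −2.75 and −2.40.

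On the first design the response to H2O2 was higher in pretreated than in naive cells, by limma's test of the difference, for HMX1 at 20 min (1.72) and 30 min (1.96), SIT1 at 30 min (1.57) and 40 min (1.35) and FTR1 at 40 min (0.69). All 5 calls were lost when the arrays compared were fitted alone and when the time course arrays were scaled to 1 common spread. HMX1 at 30 min and both 40 min calls were also lost without any 1 array, HMX1 at 20 min without any of 3 arrays, and SIT1 at 30 min without naive replicate 1.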

How the results depend on the processing

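No member call changed direction. Of the 55 member calls on the first design, settings other than leaving out arrays kept 295 values on their side of the threshold and lost 33, and leaving out an array or a replicate number kept 85 and lost 64. With only the arrays compared in the fit, 8 members in place of 4 were called in naive cells at 30 min, 5 in place of 8 in pretreated cells at 40 min, and 0 in pretreated minus naive at 20, 30 and 40 min in place of 1, 2 and 2. Time course arrays scaled to 1 common spread gave 3 in place of 5 in pretreated cells at 30 min, 2 in place of 8 at 40 min, and again 0 at the 3 later times of pretreated minus naive. The array prefix as a block gave 1 in place of 3 at NaCl 45 min and 1 in place of 0 for the level difference at 20 min. Why these counts moved was not tested. Leaving out arrays gave 2 to 3 calls in naive cells at 10 min, 3 to 5 at 20 min, 3 to 3 at 30 min and 3 to 4 at 40 min. It gave 3 to 4, 5 to 5, 2 to 4 and 2 to 5 in pretreated cells at these times, 0 to 1, 0 to 1 and 0 to 0 in their difference at 20, 30 and 40 min, and 2 to 4 and 2 to 2 for NaCl at 30 and 45 min; a lone array left in a group is assumed to vary like the others.

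The replicate block gave 7 members in place of 4 in naive cells at 30 min and lost ARN1 in pretreated cells at 40 min and FET3 at NaCl 45 min. Over all genes it gave 39, 442, 688 and 775 calls for pretreated minus naive at the 4 times in place of 12, 199, 442 and 569, and 9 and 60 level differences in place of 0 and 12. Same-numbered arrays of naive and pretreated cells deviated together with correlations from −0.03 to 0.56, not above 0.1 for every pair, so the numbers were not taken as pairs.

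The strain contrast met the rule for 7 genes, for 6 with the spread of the arrays equalised, for 7 at 10 min alone and for 8 at 20 min alone. Of 6534 genes, 337 were lower and 193 higher at 10 min alone. At 20 min alone 327 were lower and 483 higher. The contrast of the change from 10 to 20 min, an alternative chosen after seeing the data, met it for 1. The shares of all genes for this change and for the equalised spread at both times were not counted. The median likeness was 0.43 on all arrays and 0.42 on the H2O2 arrays, while single genes moved, HMX1 from −0.03 to 0.44, FET3 from 0.33 to −0.14 and SIT1 from 0.55 to 0.82. The means of YAP5, FRE1 and CTR1 without single arrays were also added after seeing the data. The planned promoter motif search was not run. SIT1 at NaCl 45 min had 1 array and no test.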
